A study of Sus scrofa with 10 samples.

Results

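Neuropeptide Y (NPY) and its receptors NPY1R and NPY5R were followed in the hypothalamus of pigs that diverge in growth and fatness. They are 3 of the 25009 gene rows of the deposited table and were taken by the gene names in that table. The study sequenced RNA from the hypothalamus of 10 Iberian x Landrace backcross pigs, 5 of high growth and fatness (High pigs) and 5 of low growth and fatness (Low pigs). No drug, diet or gene change is named for either group, and age, sex and feeding state were not given in the sources used here. The design sets such pigs against each other to find hypothalamic genes that differ with growth and fatness.

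The table holds FPKM, which divides the fragments of a gene by the length of its transcript and by the size of the library. Each gene has 1 value per group, between deposited confidence bounds. Values per animal were not analysed here, so no spread between animals could be measured and no test across animals was made. Bounds are printed in parentheses after a value, and the labels do not state their confidence level. A gene was said to pass where the bounds of the groups did not overlap. Of 15281 rows with an estimate in both groups and a mean of at least 1 FPKM, 70 (0.458%) passed, 66 with the higher value in Low pigs (0.432%) and 4 in High pigs (0.0262%). The depth of each sample is unknown. Of the tested rows, 67.7% had the higher value in Low pigs, and the median difference of log2(FPKM + 1), high minus low, was -0.10.

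NPY is a short amidated peptide and one of the strongest known stimulants of feeding. In the arcuate nucleus it is made by neurons that also release AGRP and GABA, which are active in hunger and restrained by leptin and insulin. Its receptors are coupled to inhibitory G proteins, which lower cyclic AMP, open inward-rectifier potassium channels and close presynaptic calcium channels. NPY1R and NPY5R are the receptors most closely tied to the feeding response, whereas NPY2R acts mainly on nerve endings to hold back release of NPY itself.

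None of the 3 genes passed, and only 0.458% of all tested rows did. A count of 0 here or in the short lists below therefore says little about their genes. The peptide had the higher value in Low pigs, NPY1R had nearly equal values, and NPY5R had the higher value in High pigs. The direction of NPY1R depended on how the groups were scaled.

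The peptide gene NPY (ENSSSCG00000016718) lies on chromosome 18 of build Sscrofa10.2, from 52929674 to 52937567. NPY was at 7.25 FPKM (3.61 to 10.9) in High pigs and 11.9 FPKM (5.16 to 18.6) in Low pigs. The value of Low pigs was therefore 1.64 times that of High pigs, and the bounds allow a ratio from 0.473 to 5.16. The intervals shared the stretch from 5.16 to 10.9 FPKM, which is 78.8% of the interval of High pigs and 42.7% of that of Low pigs. On the log2(FPKM + 1) scale the difference of NPY was -0.64, and 3.74% of tested rows had a lower one. A low-to-high ratio at least as large as that of NPY was found in 4.54% of tested rows, so a difference of this size is uncommon in the table although it did not pass.

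The interval of NPY was wide for its level. The distance from its value to either bound was 50.3% of the value in High pigs, against a median of 37.6% in the 100 rows nearest in level, and 56.6% against 39.5% in Low pigs. AGRP, its partner peptide in the arcuate nucleus, had similarly wide bounds, 53.2% and 63.1%. For NPY1R the same measure was 34.0% and 39.2%, below the medians of 38.2% and 43.3% for rows of its level.

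The receptor gene NPY1R (ENSSSCG00000008888) lies on chromosome 8, from 55280140 to 55290347. NPY1R was at 7.81 FPKM (5.15 to 10.5) in High pigs and 8.38 FPKM (5.09 to 11.7) in Low pigs. The interval of High pigs lay wholly inside that of Low pigs. The high-to-low ratio was 0.931, and the bounds allow 0.442 to 2.05. The log2 difference of -0.09 was close to the median of all tested rows, -0.10, and 26.6% of tested rows had a ratio at least as near to 1. It turned to 0.013 after median-of-ratios scaling, which multiplies each group by 1 factor so that the middle row is equal in both.

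The receptor gene NPY5R (ENSSSCG00000008889) lies on the same chromosome, from 55309150 to 55310490. NPY5R was at 6.38 FPKM (3.69 to 9.07) in High pigs and 5.37 FPKM (2.71 to 8.04) in Low pigs. The intervals overlapped from 3.69 to 8.04 FPKM, over 80.8% of that of High pigs and 81.7% of that of Low pigs. The high-to-low ratio was 1.19, with 0.459 to 3.35 allowed by the bounds, and 11.5% of tested rows had a high-to-low ratio at least as large. The log2 difference was 0.21, and 89.4% of tested rows had a lower one.

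**Figure D1:**
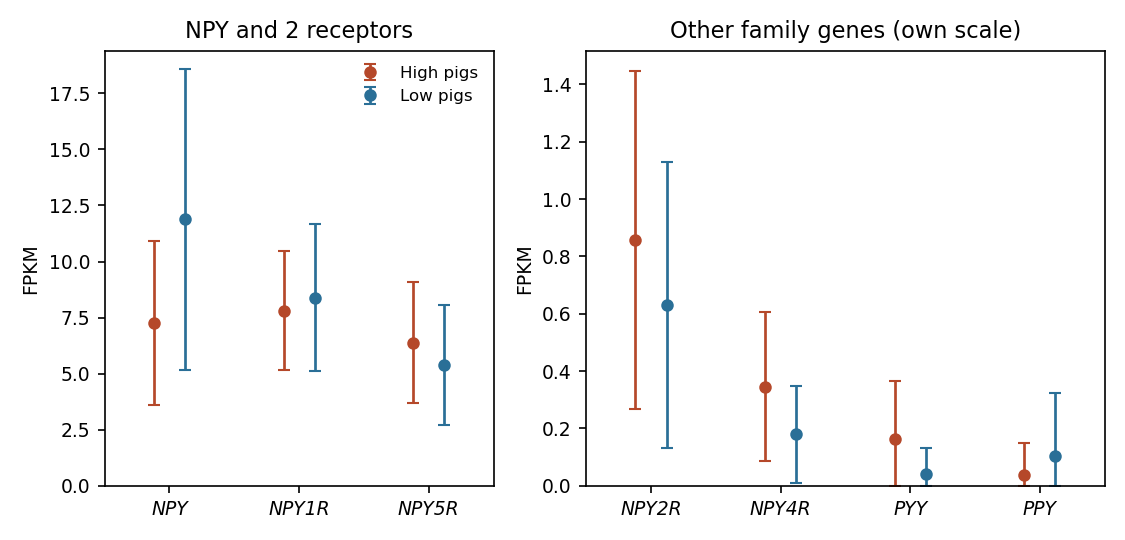
FPKM of NPY, NPY1R and NPY5R (left) and of the other genes of the family found in the table (right, own scale) in High and Low pigs. Points are the authors' group values and bars the deposited bounds; the bars of the groups overlap for every gene shown, and NPY2R, NPY4R, PYY and PPY are all below 1 FPKM in value.

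The other members of the family were near the floor. NPY2R, the receptor on nerve endings, was at 0.857 FPKM (0.268 to 1.45) in High pigs and 0.630 FPKM (0.131 to 1.13) in Low pigs. NPY4R, the preferred receptor of pancreatic polypeptide and listed under its older symbol PPYR1, was at 0.345 FPKM (0.0861 to 0.605) and 0.179 FPKM (0.00916 to 0.349). The gut peptide PYY was at 0.164 and 0.0410 FPKM, and pancreatic polypeptide, PPY, at 0.0373 and 0.104 FPKM, each with a lower bound of 0 in both groups. NPY6R was not matched to a row. None of these 4 genes reached a mean of 1 FPKM, and the intervals of the groups overlapped for each.

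The levels of the receptors could be put in an order that held in both groups. NPY1R was highest, then NPY5R, NPY2R and NPY4R. The intervals of NPY1R and NPY5R overlapped in each group, as did those of NPY2R and NPY4R, so neither of these pairs differed beyond its bounds. Between NPY5R and NPY2R they did not overlap in either group. NPY5R was 7.45 times NPY2R in High pigs (2.55 to 33.8 allowed by the bounds) and 8.53 times in Low pigs (2.40 to 61.6). NPY lay between NPY1R and NPY5R in High pigs and above both in Low pigs, with overlapping intervals each time.

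These levels rest on the gene models. The row of NPY5R spans 1341 bases in the table, a multiple of 3, whereas those of NPY1R and NPY span 10208 and 7894 bases including any introns. The table gives no transcript lengths, so the length by which each FPKM was divided is unknown and the order of levels between genes carries that uncertainty. Comparisons of 1 gene between the groups share the same model.

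NPY1R and NPY5R are neighbours. Their rows lie 18.8 kb apart with 0 other rows between them, and NPY2R is on the same chromosome 23.0 Mb further on. The nearest named rows on either side of the pair were NAF1, a ribonucleoprotein assembly factor, at 10.3 against 13.7 FPKM (High against Low pigs) and TKTL2, a transketolase-like gene, at 1.15 against 0.937 FPKM. Neither passed. Over the 528 tested rows of chromosome 8 the median log2 difference was -0.09, close to that of NPY1R. Around NPY on chromosome 18, the nearest rows were MPP6, a membrane scaffold gene 268 kb before it, at 7.22 against 8.40 FPKM, and the kinase gene STK31, 340 kb after it, at 0.370 against 0.214 FPKM. The 298 tested rows of that chromosome had a median of -0.10, against -0.64 for NPY.

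Ratios between members within a group are not altered by a scaling that multiplies each group by 1 factor. As deposited, NPY to NPY5R was 1.14 in High pigs (0.398 to 2.96 allowed by the bounds) and 2.21 in Low pigs (0.641 to 6.86). NPY to NPY1R was 0.929 (0.345 to 2.12) and 1.42 (0.442 to 3.65). The peptide thus stood higher relative to both receptors in Low pigs, by 1.94 times for NPY5R and 1.53 times for NPY1R, with ranges that overlap between the groups. NPY1R to NPY5R was 1.22 (0.568 to 2.84) in High pigs and 1.56 (0.634 to 4.30) in Low pigs. The ranges of these ratios overlap as well.

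**Figure D2:**
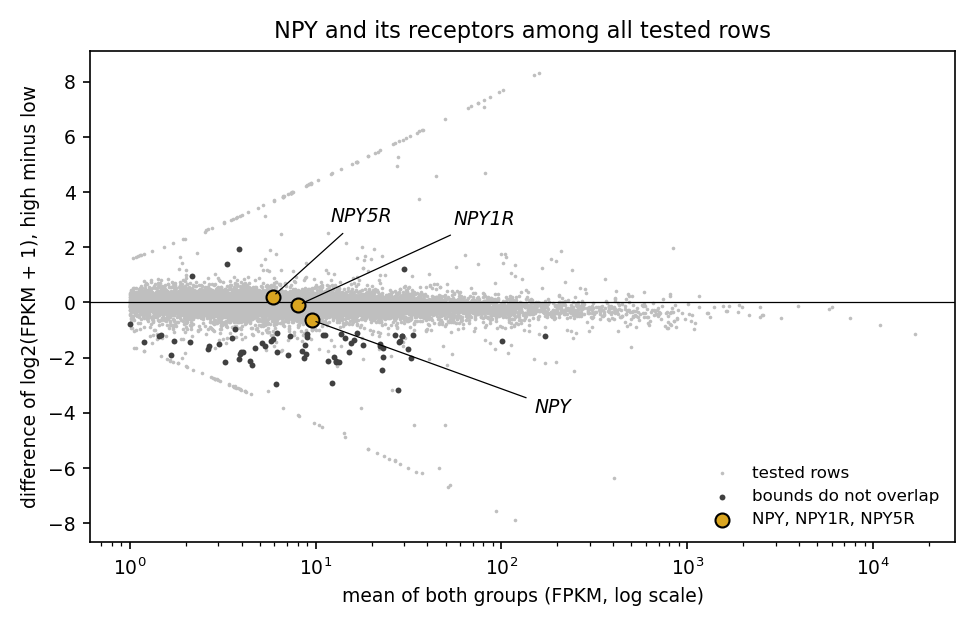
Difference of log2(FPKM + 1), high minus low, against the mean of both groups (FPKM, log scale) for the 15281 tested rows, with rows whose bounds do not overlap in black. NPY at -0.64, NPY1R at -0.09 and NPY5R at 0.21 lie within the grey band of rows that did not pass; the diagonal lines of points are rows listed at or near 0 in 1 group.

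Among neuropeptide receptors, the pair of NPY receptors stood near the top. Of 39 such receptors with an estimate, NPY1R ranked 3 in High pigs and 2 in Low pigs, and NPY5R ranked 4 in both. The median of the other 37, which are those matched of 43 listed, was 1.18 FPKM in High pigs and 0.958 FPKM in Low pigs. CALCR, the calcitonin receptor, ranked first at 220 against 257 FPKM (High against Low pigs). OPRL1, the nociceptin receptor, at 11.0 against 8.06 FPKM, stood above NPY1R in High pigs and between NPY1R and NPY5R in Low pigs. OPRK1, an opioid receptor, followed NPY5R at 6.37 against 3.99 FPKM. The bounds of OPRL1, NPY1R, NPY5R and OPRK1 overlapped in each group, so the order among them is not firm. MC4R, the melanocortin receptor opposed by AGRP, was at 2.22 against 1.41 FPKM, and MCHR1, the receptor of melanin-concentrating hormone, at 5.41 against 3.32 FPKM. None of the 18 tested receptors of this list passed. Of these, 15 had the higher value in High pigs and 3 (CALCR, NTSR2 and VIPR2) in Low pigs, as deposited. Their median difference was 0.34, against -0.10 over all tested rows. NPY5R (0.21) was on the side of the 15 and NPY1R (-0.09) on that of the 3 as deposited.

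**Figure D3:**
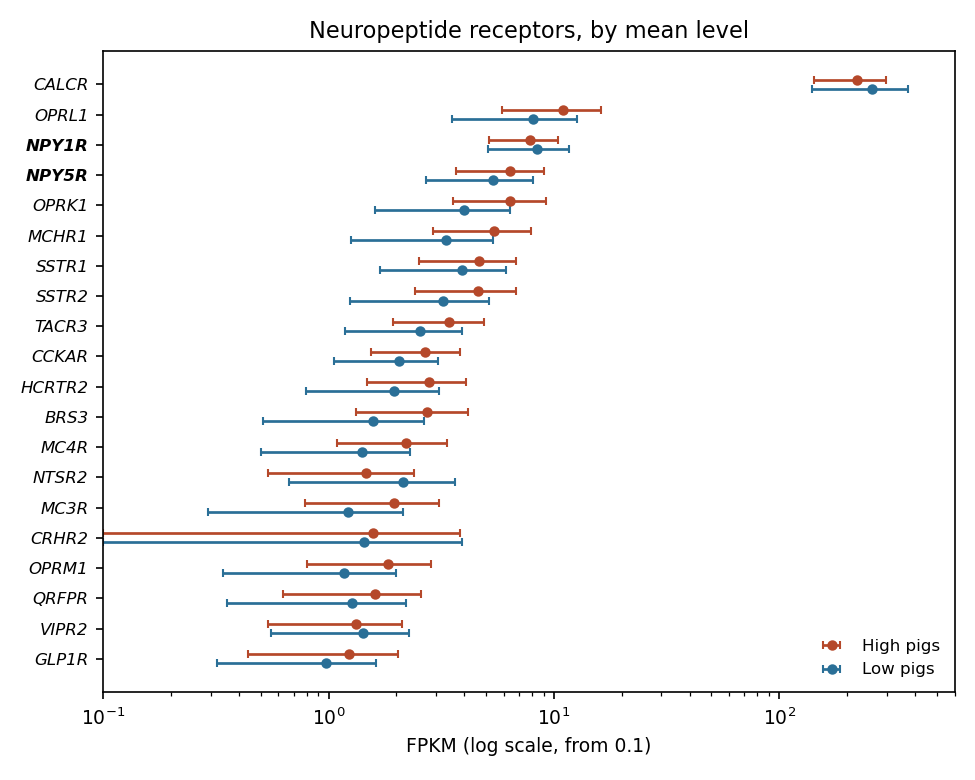
FPKM (log scale) of the neuropeptide receptors with a mean of at least 1 FPKM, ordered by mean, in High and Low pigs; points are group values and bars the deposited bounds, cut at 0.1 where the lower bound is below it (CRHR2). NPY1R and NPY5R, in bold, follow CALCR and OPRL1.

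Genes of the arcuate neurons that make NPY were taken from a list of 16, of which 15 were found and 10 tested. Apart from AGRP, most of them are made by many other cells too, so their values are not those of NPY neurons alone. None passed, and 9 of the 10 had the higher value in High pigs. AGRP was at 7.74 FPKM (3.62 to 11.9) in High pigs and 8.81 FPKM (3.25 to 14.4) in Low pigs, and it was the 1 tested member of the list with the higher value in Low pigs. The GABA synthesis enzymes GAD1 and GAD2 were at 39.2 against 32.6 FPKM and 33.2 against 23.4 FPKM, and the vesicular GABA transporter SLC32A1 at 9.61 against 8.02 FPKM. INSR, the insulin receptor, was at 4.84 against 3.43 FPKM. LEPR, the leptin receptor, was at 0.597 against 1.20 FPKM and GHSR, the ghrelin receptor, at 0.438 against 0.297 FPKM, both below the mean of 1 FPKM. The row of GHSR carries that name in the deposited table, whereas the table of identifiers gives the name to a nearby row deposited as TNFSF10, so which gene this value belongs to is uncertain. The median difference of the 10 tested genes was 0.25, against -0.64 for NPY and -0.10 over all tested rows. NPY to AGRP was 0.937 in High pigs (0.304 to 3.01 allowed by the bounds) and 1.35 in Low pigs (0.359 to 5.72), and the intervals of the peptides overlapped in each group.

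The prohormone enzymes that release NPY from its precursor had close values in both groups. PCSK1 was at 34.2 against 33.6 FPKM and PCSK2 at 38.5 against 37.7 FPKM. CPE, which trims basic residues, was at 648 against 661 FPKM, PAM, which adds the amide that NPY needs to act, at 143 against 145 FPKM, and SCG5, a chaperone of PCSK2, at 181 against 180 FPKM. Of the 12 genes listed for making and breaking the peptide, 9 were tested and 0 passed, 4 with the higher value in High pigs and 5 in Low pigs. Among enzymes that break NPY down, MME (neprilysin) was at 3.53 FPKM (1.87 to 5.18) against 5.52 FPKM (2.98 to 8.06). DPP4, which cuts NPY to a form that no longer binds NPY1R well, was at 0.319 FPKM (0.0982 to 0.539) against 1.24 FPKM (0.451 to 2.02), below a mean of 1 FPKM.

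Among 25 tested signalling genes below the receptors 0 passed, against 0.458% of all tested rows. Of these genes 10 were higher in High pigs and 15 in Low pigs. Their median was -0.07, which was 0.040 after median-of-ratios scaling. The inhibitory G protein subunits GNAI1, GNAI2 and GNAO1 were at 37.2 against 45.6 FPKM, 127 against 143 FPKM and 45.9 against 55.5 FPKM. The G protein subunit GNG2 had the higher value in High pigs, at 142 against 130 FPKM. The inward-rectifier potassium channel subunit KCNJ3 was at 7.78 against 8.32 FPKM and KCNJ9 at 11.2 against 11.8 FPKM. The related subunits KCNJ5 (5.40 against 5.13 FPKM) and KCNJ6 (3.24 against 2.37 FPKM) had the higher value in High pigs. The calcium channel subunit CACNA1A was at 14.1 FPKM (9.37 to 18.9) in High pigs and 8.84 FPKM (5.03 to 12.7) in Low pigs, the largest difference of the list, 0.62. CACNA1A has 2 rows in the table, which may divide its reads between them and makes its value uncertain.

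Beside the other feeding peptides NPY was of modest level. Of 19 peptides with an estimate, NPY included, it ranked 13 in High pigs and 10 in Low pigs. POMC, the precursor of the melanocortins that oppose NPY and also a pituitary gene, was at 84.0 FPKM (51.3 to 117) against 110 FPKM (65.9 to 155). CARTPT, an appetite-restraining peptide of the same nucleus, was at 115 FPKM (81.6 to 149) in High pigs and 70.2 FPKM (42.0 to 98.4) in Low pigs. The lateral hypothalamic peptides PMCH and HCRT were at 167 against 91.8 FPKM and 4.16 against 1.78 FPKM. Of the 16 other feeding peptides tested, 0 passed, 7 had the higher value in High pigs and 9 in Low pigs. NPY had the lowest high-to-low ratio of the 17 genes in the plot of ratios, 0.610, although its range of 0.194 to 2.11 covers the ratios of all of them but HCRT. VIP, left out of that plot, was at 2.20 against 4.22 FPKM with a lower bound of 0 in both groups.

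**Figure D4:**
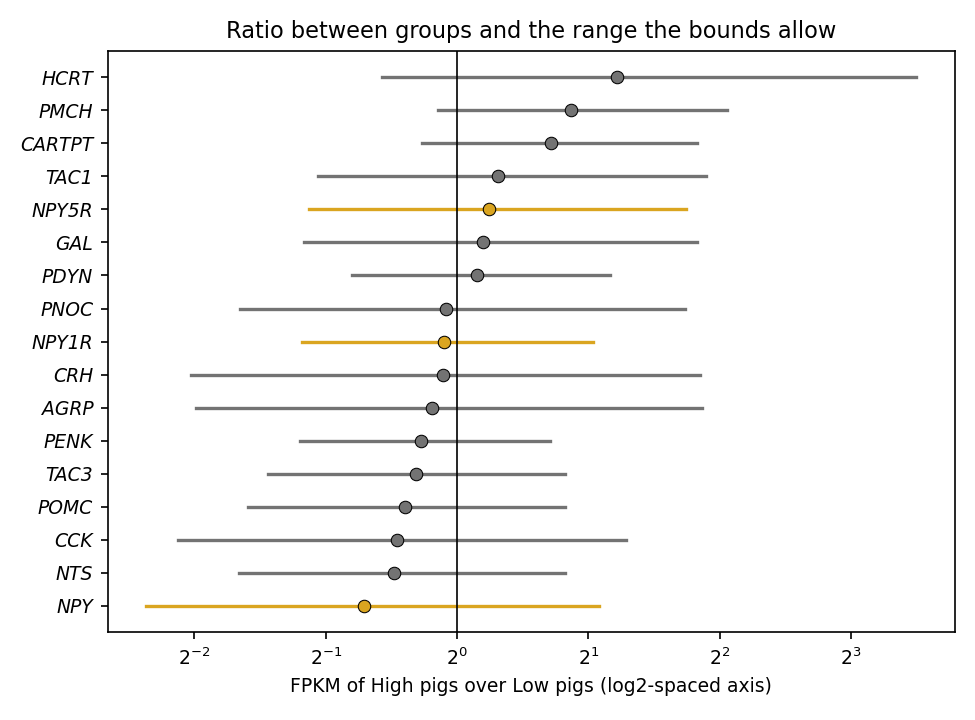
Ratio of High to Low pigs in FPKM (log2-spaced axis) for NPY, NPY1R and NPY5R (gold) and the feeding peptides tested (grey); lines span the lowest to the highest ratio the deposited bounds allow, and TRH and VIP are left out because a lower bound is 0. Every line crosses 1; NPY is lowest at 0.610 and HCRT highest at 2.33.

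The tissue was checked against defining markers. Of 16 hypothalamic markers 15 were found, and none was at 0 in either group. Of the 11 tested, 0 passed and 8 had the higher value in High pigs, the side opposite to that of NPY, with a median difference of 0.41 and summed levels of 812 against 617 FPKM over the 15. AVP (vasopressin) was at 472 against 354 FPKM and OXT (oxytocin) at 55.5 against 34.7 FPKM. AGRP, POMC, PMCH and HCRT, described above, belong to this list too. In contrast, the transcription factors RAX (0.118 against 0.0515 FPKM), HMX2 (0.0509 against 0.0606 FPKM) and SIM1 (0.420 against 0.507 FPKM) were near 0. NPY is also made outside the hypothalamus, in noradrenergic nerves around vessels and in cortical and striatal interneurons. Of 6 noradrenergic markers 4 were found. DBH, SLC6A2 and PHOX2A were at 0.0837 FPKM or less in both groups. The vesicular monoamine transporter SLC18A2, which other monoamine cells share, was at 8.88 against 7.00 FPKM. The cell bodies of noradrenergic nerves lie outside the hypothalamus, so low values here cannot show whether such nerves were present. Of 6 tested markers of cortical and striatal GABA interneurons, 0 passed, 4 had the higher value in High pigs and 2 in Low pigs. The median difference was 0.35, and the list is not confined to interneurons that make NPY. SST (somatostatin), which hypothalamic neurons also make, was at 156 against 114 FPKM, RELN (reelin) at 7.48 against 5.33 FPKM, CHODL at 6.61 against 5.07 FPKM and NOS1, a nitric oxide synthase, at 2.39 against 1.62 FPKM. The 2 on the side of NPY were PVALB (parvalbumin), at 3.07 against 5.08 FPKM, and VIP. The list was drawn up for interneurons that make NPY, with both of these genes in it. What such cells add to the values of NPY was not tested. LHX6, a factor of cortical interneurons, was below the mean of 1 FPKM, at 0.580 against 0.698 FPKM. Of 5 tested markers of cortex, striatum and thalamus 0 passed, 2 had the higher value in High pigs and 3 in Low pigs. Their differences ran from -1.09 to 0.15, with a median of -0.30. The cortical factor TBR1 was at 0.160 against 0.278 FPKM. PPP1R1B, abundant in striatal neurons, was at 13.5 FPKM (8.37 to 18.5) against 29.7 FPKM (17.0 to 42.4).

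Markers of several other cell types had higher values in Low pigs, as NPY did. Over all tested rows, 67.7% had the higher value in Low pigs as deposited, and 0.432% passed on that side. The direction of a list of few genes therefore says little. All 12 fibroblast, mural and meningeal markers had the higher value in Low pigs as deposited (11 after median-of-ratios scaling) and 6 of them passed, with summed levels of 108 against 267 FPKM. For oligodendrocytes 9 of 9 tested markers had the higher value in Low pigs (3080 against 4789 FPKM summed) and for the anterior pituitary 6 of 6 (545 against 1095 FPKM), with 0 passing in either list. Of 3 tested blood markers all were higher in Low pigs, and HBB passed (106 against 247 FPKM for all 6 markers). All 8 microglial markers (284 against 407 FPKM) and all 5 endothelial markers found (39.3 against 47.2 FPKM) were higher in Low pigs too, with 0 passing. Of 5 tested astrocyte markers 4 were as deposited and 2 after either scaling, and GFAP had no estimate in either group. Of the 6 neuronal markers found, 4 were higher in Low pigs as deposited, 3 after median-of-ratios scaling and 0 after quantile normalization, and their sums were 1592 against 1688 FPKM. The part of these tissue differences and of the hypothalamic markers in the values of NPY and its receptors was not tested, and fewer NPY cells and less NPY RNA per cell cannot be told apart in such samples.

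With 2 group values a gene can be matched to a member only on level and direction. By distance in log2(FPKM + 1) over the 2 values, the named genes most like NPY were GPSM2 (7.41 against 11.7 FPKM), PLA2R1 (7.08 against 12.1 FPKM) and ADAMTS4 (7.13 against 12.2 FPKM). Within a distance of 0.1 lay 13 of 12242 named tested rows for NPY, 185 for NPY1R and 80 for NPY5R. Nearest to NPY1R were AHSA2, RFX5 and KCNJ3, and nearest to NPY5R were PSME4, AK8 and TCFL5.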

How the data were processed

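Per the labels' protocols, total RNA came from a RiboPure kit and went into paired-end Illumina TruSeq libraries, several of which shared a HiSeq lane. Build Sscrofa10.2, TopHat2 2.0.5, Bowtie2 and Cufflinks 2.0.2 are named, without roles, in the submitters' processing notes, as are Trim Galore, FastQC and CASAVA. The authors deposited 1 FPKM value per gene and group with bounds and a status, per the file headers; how the animals were combined, and whether the bounds include differences between animals, is not stated there. Depth per sample is unknown.

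Of 25009 rows, 58 without an estimate in a group were left out, and the 15281 whose 2 values averaged 1 FPKM or more were tested. Differences are log2(FPKM + 1), which understates changes of low genes. The range of a ratio divides the lower bound of one value by the upper bound of the other, and the reverse. Bounds that do not overlap are no test across animals. Python 3.11.15, pandas 2.3.3 and numpy 2.4.6 were used.

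Genes were matched by the names in the table, and 963 unnamed rows were named from a table of Ensembl identifiers; 10 list genes were matched under another name that the table of identifiers, RefSeq or the list gives. Starts in the table count from 0 (8 rows start at 0, and the end minus the start is a multiple of 3 in 1150 of 1391 rows of short span), so printed starts are the deposited ones plus 1. Members and lists were chosen with earlier results of these data known. Named genes are the members, the family, 5 feeding peptides and, from each list, genes that passed and those of highest level; further genes (among them LEPR, GHSR, INSR, MC4R, MCHR1, DPP4, MME, CACNA1A, NTSR2, VIPR2, KCNJ3, KCNJ9 and the tissue markers) were named after their values were seen, for their role or to show the members behind a count. Alternatives for the members were 2 scalings, other pseudocounts (0.1 and 0.5) and a z value built from the bounds. For the count of rows that passed they were the scalings, the z value, other filters and 1 row per gene name.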

Additional observations from a re-analysis of the deposited data

How the results depend on the processing

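The difference of NPY was -0.70 to -0.54, and that of NPY5R 0.21 to 0.31, under both scalings and both other pseudocounts. A pseudocount cannot change the sign of a difference. Median-of-ratios scaling moved every difference toward High pigs, so it could not turn that of NPY5R. These settings therefore show the size of the differences more than their direction. NPY1R turned from -0.09 to 0.013 after median-of-ratios scaling, by the construction of a factor that moved the median of all tested rows by 0.10, and was -0.011 after quantile normalization. None of the 3 genes passed under either scaling or by the z value, the alternatives run on them that can change a call. The 70 rows that passed became 32 by the z value adjusted at 0.05 (Benjamini-Hochberg), 31 higher in Low pigs and 1 in High pigs. The z value takes natural logs and is adjusted over the tested rows, whereas the bounds are compared without adjustment. It also takes the distance from a value to its bound as 2 standard deviations, an assumption, since the confidence level is not stated. Which of these steps lowered the count was not tested. Other settings gave 47 to 72 rows. After median-of-ratios scaling 48 rows were higher in Low pigs and 7 in High pigs, against 66 and 4, and the medians of 5 lists turned positive: signalling (0.040), peptide processing (0.090), feeding peptides (0.017), neurons (0.024) and astrocytes (0.014). After quantile normalization the median was 0.031 for signalling, 0.191 for peptide processing, 0.12 for neurons and 0.0033 for astrocytes, but still negative for feeding peptides (-0.011). No paired analysis was possible because only group values were analysed, and leaving out single animals was not run for the same reason. What depth limits could not be measured, since depth is unknown.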
